A study of Mus musculus with 32 samples.

Results

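The complement genes C1qa, C1qb, C1qc, C4b, C3, C3ar1, Serping1 and Cd59a were read out in frontal cortex libraries of wild-type (WT) and GFAP-IL6 mice. The genes were chosen by symbol from the count table, and all 8 were among its 33000 gene rows. WT mice were C57BL/6, and the homozygous GFAP-IL6 mice carry an interleukin 6 transgene driven by the promoter of Gfap, which is active in astrocytes. All animals were 3 months of age, and no other treatment is named in the labels. Total RNA was profiled by 3′Pool-seq, a method that counts reads from the 3′ ends of polyadenylated transcripts, with 50, 10, 1 or 0.5 ng of RNA in the reverse transcription. Each genotype had 4 replicate libraries at each of the 4 inputs, which gives 32 libraries in 8 groups. The comparisons below ask which complement genes differed between the genotypes, by how much, and down to which input the difference could still be measured.

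Complement is a cascade of plasma proteins that marks targets for uptake or lysis, and many of its genes are also transcribed locally in the brain. In the classical pathway, C1q, built from A, B and C chains encoded by C1qa, C1qb and C1qc, binds the target and its associated proteases cleave C4 and C2, and the resulting enzyme cleaves C3. The C3a fragment acts on the receptor encoded by C3ar1. Serping1 encodes the C1 inhibitor, which stops the C1 proteases, and Cd59a encodes a membrane-anchored inhibitor of the terminal pore. In brain, C1q is made mainly by microglia, and C4 is widely known as a transcript that rises in reactive astrocytes.

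The 3 C1q genes lie next to each other on chromosome 4 of GRCm38, all on the minus strand and each with 3 exons, in a stretch of 18675 bases. C1qb (chr4:136880129-136886187) is followed after 3616 bases by C1qc (chr4:136889804-136893065) and after another 2851 bases by C1qa (chr4:136895917-136898803). C4b (chr17:34728380-34743882, minus strand) and C3 (chr17:57203970-57228136, minus strand) each have 41 exons. C3ar1 (chr6:122847138-122856161, minus strand) has 2 exons, Serping1 (chr2:84765387-84775444, minus strand) has 8 and Cd59a (chr2:104095801-104115354, plus strand) has 5. The close copy Cd59b ends 4613 bases before Cd59a on the same strand. Reads shared between such copies, or between C4b and its near-identical copy C4a, would not have been counted as uniquely aligned, so the levels of C4b and Cd59a are uncertain in that respect. C4a was looked for, but the count table had no row under that symbol.

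C1qb and C1qc differed between genotypes at nearly the same ratio, so the sequence before each start is shown. The bases were taken from the RefSeq promoter table for GRCm38.p6, which held 5 of the members (C1qb, C1qc, C3, C3ar1 and Cd59a) and not C1qa, C4b or Serping1. They read 5′ to 3′ on the minus strand, span chr4:136886201-136886450 for C1qb and chr4:136893066-136893164 for C1qc, and lie outside the annotated gene. For C1qc only the first 99 of the 250 bases searched are shown, because its RefSeq start lies inside the GENCODE gene. Positions count from the RefSeq start, which for C1qc lies beyond the last base shown. Capitals mark a match to GAGGAAG, the core read by the myeloid factor PU.1, here on the opposite strand as CTTCCTC.
C1qb: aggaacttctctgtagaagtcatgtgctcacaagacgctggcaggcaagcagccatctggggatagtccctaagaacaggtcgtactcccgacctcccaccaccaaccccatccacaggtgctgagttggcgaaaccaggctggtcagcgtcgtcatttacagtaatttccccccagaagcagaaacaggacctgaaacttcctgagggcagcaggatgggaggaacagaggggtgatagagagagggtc
C1qc: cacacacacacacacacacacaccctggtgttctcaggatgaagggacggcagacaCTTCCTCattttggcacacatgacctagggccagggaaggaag
In the 250 bases before the RefSeq start, searched on both strands, this match stood only in C1qc among the 5 members, at positions -194 to -188, and 10.7% of 32544 mouse promoter windows of that length held it. The letters TTCNNNGAA, a STAT-type motif that reads the same on both strands, were in none of the 5 windows and in 7.04% of all. The motifs do not overlap, and a match is a run of letters, not a measured site.

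Depth limits what can be said of the rarer members. Total counts ran from 1071895 to 7538356 per library at 50 ng, from 1064514 to 9840302 at 10 ng, from 261378 to 2800270 at 1 ng and from 295022 to 2722389 at 0.5 ng. Levels are given as CPM, counts scaled to a common library total without length correction. The floor was 3 counts, which equalled 0.305 to 11.5 CPM depending on the library. A library at or under the floor was not counted as holding the gene, but its value stayed in the means, ratios and tests. As a check of genotype, Il6 counts at 50 ng were 1, 0, 0 and 1 in WT against 17, 9, 22 and 4 in GFAP-IL6, but there were 13 counts in WT replicate 3 at 1 ng and 0 in all 8 libraries at 0.5 ng. Choroid plexus markers (Ttr, Kl, Folr1) summed to between 3016 and 3375 CPM in WT replicate 3 at every input and to at most 339 CPM in any other library. Whether libraries with the same number share RNA across inputs is not stated, so the inputs are not independent repeats of the genotype comparison. Markers of neurons, astrocytes, oligodendrocytes and microglia were present at every input. Nothing in the labels ties a library to an animal, so p-values measure the spread between libraries.

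C1qb and C1qc were higher in GFAP-IL6 cortex, with mean levels 1.90 to 2.82 times those of WT over the 4 inputs. At 50 ng, C1qb stood at 104, 88.8, 131 and 92.2 CPM in WT replicates 1 to 4 and at 241, 224, 329 and 124 CPM in GFAP-IL6 replicates 1 to 4. GFAP-IL6 replicate 4 lay inside the WT range, and the other GFAP-IL6 libraries lay above it. C1qc stood at 85.5, 91.0, 112 and 90.5 CPM in WT and at 221, 203, 258 and 117 CPM in GFAP-IL6, so all GFAP-IL6 libraries were above all WT libraries, replicate 4 by a small margin. The log2 fold change was 1.10 ± 0.22 (SE) for C1qb (edgeR quasi-likelihood test, Benjamini-Hochberg adjusted p = 0.0235) and 1.04 ± 0.20 for C1qc (adjusted p = 0.0208). At 10 ng the WT libraries held 84.9 to 127 CPM of C1qb and the GFAP-IL6 libraries 184 to 341 CPM, with no overlap. C1qc ranged from 71.8 to 100.3 CPM in WT and from 149 to 224 CPM in GFAP-IL6. The edgeR log2 fold changes were 1.11 ± 0.16 for C1qb (adjusted p = 7.04e-05) and 1.12 ± 0.15 for C1qc (adjusted p = 2.70e-05).

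The separation of C1qb and C1qc persisted at the lowest inputs, where the test across all genes no longer passed them. At 1 ng, C1qb was 83.6 ± 24.3 CPM (SD, n = 4) in WT and 236 ± 59.6 CPM in GFAP-IL6, and C1qc was 85.3 ± 10.5 CPM against 176 ± 33.7 CPM. At 0.5 ng, C1qb was 116 ± 32.9 CPM in WT and 231 ± 62.5 CPM in GFAP-IL6, and C1qc was 115 ± 33.3 CPM against 218 ± 38.4 CPM. For both genes the groups did not overlap at either input, as was true of 1.68% of all genes tested at 1 ng and 1.47% at 0.5 ng, and the two-sided exact permutation p was 0.0286, the smallest that 4 against 4 libraries allow. By edgeR the adjusted p was 0.05004, just above the threshold of 0.05, for C1qb and 0.380 for C1qc at 1 ng, and 0.9999 for each at 0.5 ng. The common edgeR spread between replicates, as a biological coefficient of variation, grew from 0.214 with 50 ng and 0.238 with 10 ng of RNA to 0.519 with 1 ng and 0.767 with 0.5 ng.

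C1qa was counted far less often than its partner subunits. At 50 ng it had 13, 2, 21 and 30 counts in WT and 18, 11, 60 and 51 in GFAP-IL6, that is 3.60, 1.504, 5.84 and 3.98 CPM against 5.21, 10.3, 13.8 and 9.14 CPM. GFAP-IL6 replicate 1 overlapped the WT range. The log2 fold change was 1.22 ± 0.38 at 50 ng and 1.22 ± 0.43 at 10 ng, close to those of C1qb and C1qc, but it did not pass the edgeR test over all genes (adjusted p = 0.457 and 0.465). At 10 ng WT libraries held 3.09 to 6.32 CPM and GFAP-IL6 libraries 7.52 to 12.3 CPM, without overlap. At 1 ng C1qa had 0, 0, 16 and 14 counts in WT and 12, 7, 23 and 33 in GFAP-IL6. WT replicate 3, at 12.9 CPM, lay above GFAP-IL6 replicates 1, 3 and 4 (8.65, 12.8 and 11.8 CPM), so the groups overlapped (two-sided exact permutation p = 0.114). At 0.5 ng they did not, but counts were few: 3, 0, 4 and 9 in WT and 11, 3, 22 and 51 in GFAP-IL6. C1qa was above 3 counts in 5 of 8 libraries there, and GFAP-IL6 replicate 2, at 10.2 CPM, was at the floor.

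Because reads come from transcript ends, counts need no length correction to be set side by side, although priming can still differ between genes. C1qa made up 1.79 ± 0.67% (SD, n = 4) of the counts of the C1q genes in WT at 50 ng, C1qb 51.2 ± 2.4% and C1qc 47.0 ± 2.8%. In GFAP-IL6 libraries the shares of counts were 2.35 ± 1.04%, 51.8 ± 2.2% and 45.9 ± 2.0%. Divided by transcript length, the C1qa share was 1.96 ± 0.73% in WT and 2.57 ± 1.13% in GFAP-IL6. On both scales the make-up of the 3 subunit transcripts moved by less than the spread between replicates while their summed level was higher in GFAP-IL6. The protein contains the A, B and C chains in equal number, and a 3′ count does not measure them. What sets the low count of C1qa was not tested. Over the 16 libraries at 50 and 10 ng, log2(CPM + 1) of C1qb and C1qc had a Pearson r of 0.93 within GFAP-IL6 and 0.61 within WT (n = 8 each, with the same numbers at both inputs), which is a description of libraries that share depth and perhaps RNA.

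**Figure D1:**
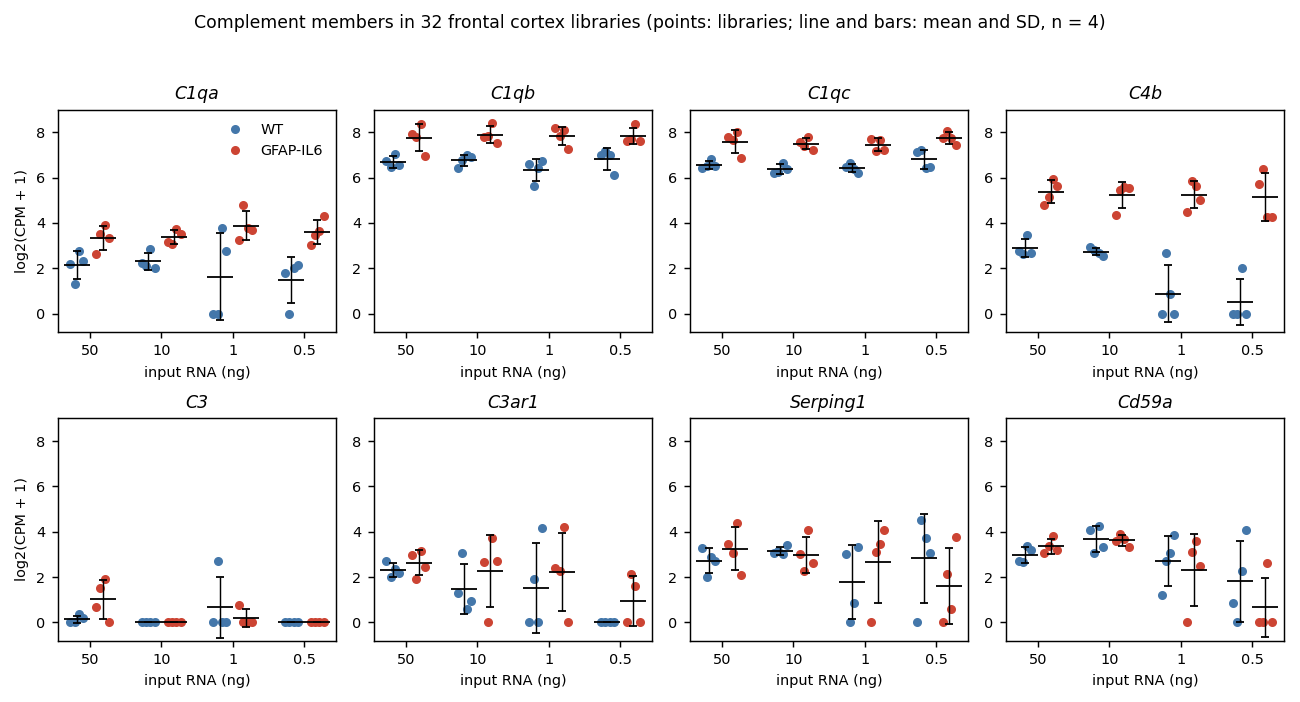
Level of each member as log2(CPM + 1) against the input RNA in ng, on a common vertical axis, with WT in blue and GFAP-IL6 in red, each point a library and the line and bars the mean and SD of 4 libraries. C1qb, C1qc and C4b keep the genotypes apart at all inputs apart from C1qb at 50 ng, where GFAP-IL6 replicate 4 (124 CPM) lies within the WT range, while C3ar1, Serping1 and Cd59a overlap throughout and C3 lies near 0.

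Microglial markers were read beside the C1q genes. The summed level of 10 microglial markers (among them Cx3cr1, P2ry12, Tmem119, Aif1, Trem2 and Tyrobp) was 501 to 543 CPM in WT and 539 to 960 CPM in GFAP-IL6 at 50 ng, and 450 to 525 CPM against 643 to 957 CPM at 10 ng. Of these 10, 8 had a higher mean in GFAP-IL6 at 50 ng and 9 at 10 ng, but only 1 had every GFAP-IL6 library above every WT library at 50 ng and 6 at 10 ng, and none was at 0. The marker sums overlapped at 50 ng. GFAP-IL6 replicate 4, lowest in C1q at 50 ng, was also lowest in the marker sum (539 CPM). The homeostatic marker P2ry12, a purine receptor, had a log2 fold change of -0.21 ± 0.20 at 50 ng (edgeR adjusted p = 0.844), whereas Aif1, a calcium-binding protein of microglia and macrophages, had 0.94 ± 0.21 (adjusted p = 0.0865) and at 10 ng 0.87 ± 0.19 (adjusted p = 0.0238). Unlike P2ry12, the homeostatic markers Cx3cr1 and Tmem119 had higher means in GFAP-IL6 at 50 and 10 ng, with overlapping groups. Cx3cr1 means were 30.7 CPM in WT and 41.9 CPM in GFAP-IL6 at 50 ng, and 27.1 and 39.1 CPM at 10 ng. Tmem119 means were 19.6 and 23.7 CPM at 50 ng, and 13.2 and 21.7 CPM at 10 ng.

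Relative to that marker sum, C1q was higher in GFAP-IL6 at 50 and 10 ng, and the groups overlapped at lower input. The summed CPM of C1qa, C1qb and C1qc divided by that of the microglial markers was 0.377, 0.362, 0.460 and 0.360 in WT replicates 1 to 4 at 50 ng and 0.544, 0.657, 0.626 and 0.465 in GFAP-IL6 replicates 1 to 4. WT replicate 3 lay just under GFAP-IL6 replicate 4, and the order of this pair depended on the scale: with the mean log2(CPM + 1) of the markers in place of their sum, GFAP-IL6 replicate 4 (a log2 difference of 2.44) lay below WT replicate 3 (2.53). At 10 ng the ratio was 0.357 to 0.445 in WT and 0.525 to 0.625 in GFAP-IL6. It overlapped at 1 ng, with 0.316 to 0.474 in WT and 0.446 to 0.710 in GFAP-IL6, and at 0.5 ng, with 0.307 to 0.603 against 0.508 to 0.667. In bulk tissue, more cells of a type and more RNA per cell cannot be told apart, and the part that microglial number plays in the C1q difference was not tested. Border macrophage markers (Mrc1, Cd163, Pf4 and Lyve1) summed to 8.49 to 15.8 CPM in WT and 6.37 to 11.2 CPM in GFAP-IL6 at 50 ng. Monocyte and neutrophil markers summed to at most 11.1 CPM at that input, with 1 of 6 at 0.

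**Figure D2:**
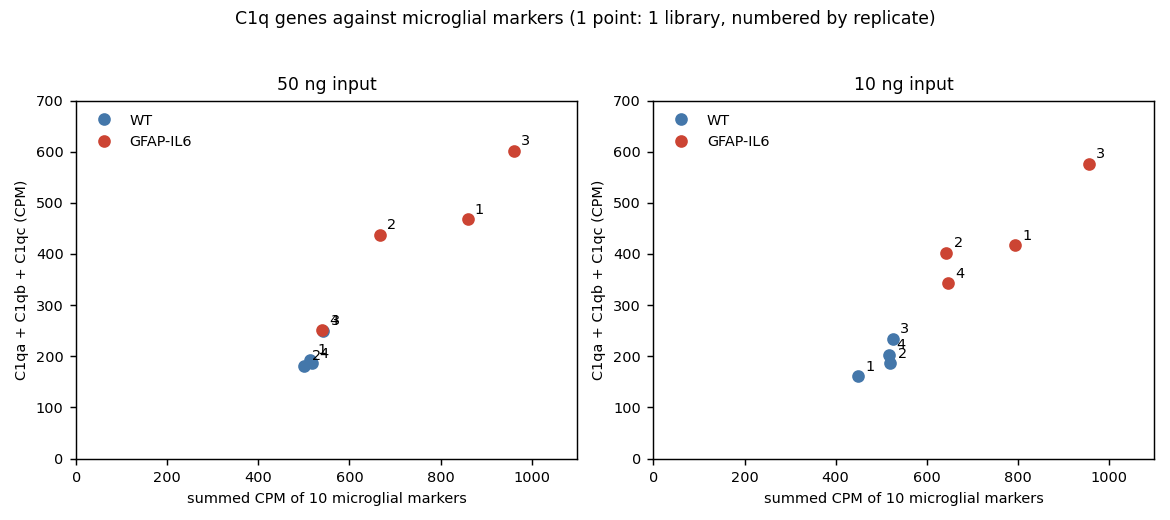
Summed CPM of C1qa, C1qb and C1qc against the summed CPM of 10 microglial markers at 50 ng (left) and 10 ng (right), both axes linear from 0, each point a library numbered by replicate, WT in blue and GFAP-IL6 in red. GFAP-IL6 replicate 4 at 50 ng, with 250.5 CPM of C1q and 539 CPM of markers, sits on WT replicate 3, with 249.6 CPM and 543 CPM.

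C4b, the complement component cleaved by the C1 proteases, had the largest log2 fold change of the 7 members tested at 50 and 10 ng. At 50 ng it stood at 5.81, 5.27, 10.02 and 5.31 CPM in WT and at 26.9, 34.5, 60.4 and 48.6 CPM in GFAP-IL6. At 10 ng it stood at 6.58, 5.94, 5.30 and 4.87 CPM in WT and at 19.7, 43.2, 47.2 and 45.8 CPM in GFAP-IL6. Every GFAP-IL6 library was above every WT library at both inputs, including replicate 4, in which C1q was low. The log2 fold change was 2.66 ± 0.28 at 50 ng (edgeR adjusted p = 1.43e-05) and 2.76 ± 0.30 at 10 ng (adjusted p = 1.88e-07).

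At lower input C4b was at or near 0 counts in WT libraries and was counted in every GFAP-IL6 library. At 1 ng it had 0, 2, 1 and 0 counts in WT and 30, 15, 86 and 89 counts in GFAP-IL6. At 0.5 ng it had 0, 0, 4 and 0 counts in WT and 81, 24, 35 and 50 counts in GFAP-IL6. The GFAP-IL6 mean was 39.7 ± 16.025 CPM (SD, n = 4) at 1 ng and 42.5 ± 30.4 CPM at 0.5 ng, against 42.6 ± 14.9 CPM at 50 ng. With so few WT counts the ratio is wide: pooled over libraries, GFAP-IL6 exceeded WT 65.6-fold at 1 ng (exact 95% interval 22.2 to 321) and 40.9-fold at 0.5 ng (15.7 to 152). These intervals cover the counting error of reads only, and are too narrow where reads are copies of the same molecule. The groups did not overlap at either input (two-sided exact permutation p = 0.0286), but the edgeR test over all genes gave an adjusted p of 0.0697 at 1 ng and 0.782 at 0.5 ng. The interaction, the genotype difference at the lower input minus that at 50 ng, was 3.11 ± 1.16 on the log2 scale at 1 ng and 2.95 ± 1.10 at 0.5 ng and did not pass (edgeR adjusted p = 0.9999 and 0.245). These fitted values rest on WT libraries at or near 0 and are no bound.

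Of the 7 members tested at 50 ng, 3 passed, all higher in GFAP-IL6 (C1qb, C1qc and C4b), where 0.28% of the 11773 genes tested were called higher. At 10 ng the same genes, again 3 of 7, passed beside 0.299% of 12043. At 1 ng 0 of 6 members passed in edgeR, 3 of them with an unadjusted p under 0.05, beside 0.0323% of 9276 genes, and DESeq2 called 3. Over all genes at 1 ng, 333 had an unadjusted p under 0.05 in edgeR and DESeq2 called 11. At 0.5 ng 0 of 5 passed, again with 3 at an unadjusted p under 0.05, beside 0.0117% of 8571, and DESeq2 called 1, and over all genes these counts were 246 and 16. The median log2 fold change of the members tested was 1.04 at 50 ng and 1.12 at 10 ng, and that of all genes tested was -0.0034 and 0.0034. Groups that did not overlap with GFAP-IL6 higher made up 2.17% of genes at 50 ng and 2.77% at 10 ng, and among the members were C1qc and C4b at 50 ng and C1qa, C1qb, C1qc and C4b at 10 ng. At 50 ng C1qb and C1qc no longer passed when WT replicate 1, 2 or 4 or GFAP-IL6 replicate 1, 2 or 3 was left out, which left C4b alone, and in a single fit of all 32 libraries 0 members passed at 50 ng and 1, C1qc, at 10 ng.

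**Figure D3:**
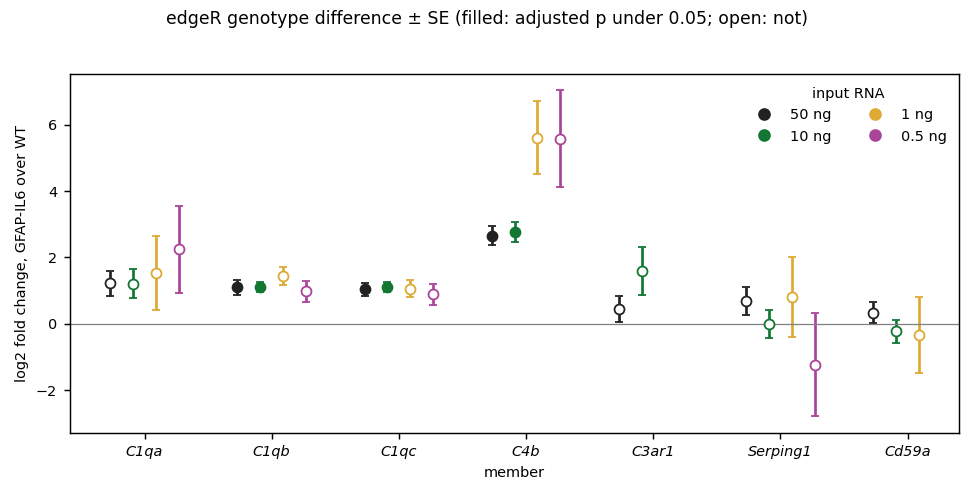
Log2 fold change of GFAP-IL6 over WT with its standard error for each member tested, from a separate edgeR fit at each input (50 ng black, 10 ng green, 1 ng yellow, 0.5 ng purple), with filled points for an adjusted p under 0.05 and open points otherwise. C4b lies at 2.66 and 2.76 and C1qb and C1qc near 1.1 with filled points at 50 and 10 ng, and Serping1 and Cd59a lie on both sides of 0.

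C4b was higher in GFAP-IL6 relative to another member, without overlap between genotypes, in 13 of 14 tests. All 14 contain C4b, and those at an input use the same 8 libraries, so they are not independent results. The log2 ratio of C4b to each other member, with 1 CPM added to each, was compared between genotypes at 50 and 10 ng. Against C1qb it was -3.81 ± 0.16 (SD, n = 4) in WT and -2.39 ± 0.76 in GFAP-IL6 at 50 ng, a difference of 1.43, and at 10 ng the difference was 1.39. Differences from C1qa and C1qc lay between 1.31 and 1.48 over the 2 inputs. Against the inhibitors they were larger, 1.97 for Serping1 and 2.13 for Cd59a at 50 ng and 2.69 and 2.57 at 10 ng. Of the 14 ratios, 13 were higher in 4 of 4 GFAP-IL6 libraries than in any WT library (two-sided exact permutation p = 0.0286, Benjamini-Hochberg adjusted p = 0.0308). That p is the smallest possible with 4 against 4 libraries, and its adjusted value passed because 13 ratios tied at it. The exception was C3ar1 at 10 ng, higher in 2 of 4 by a difference of 1.71 (exact p = 0.143, adjusted p = 0.143). With 5 CPM added in place of 1, the ratios to C1qb and C1qc at 10 ng no longer passed (exact permutation test, adjusted p = 0.0615 and 0.0857), and that to C3ar1 did (adjusted p = 0.0333). The ratios to C3 are in effect C4b itself, since C3 had at most 3 counts in 15 of the 16 libraries, and they make up 2 of the 13. Ratios to Serping1 and Cd59a, neither of which passed by itself, also mostly carry the C4b difference.

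C4b was also higher in GFAP-IL6 relative to astrocyte markers. Summed CPM of Gfap, Aqp4, Slc1a2, Slc1a3, Aldh1l1, Gja1, Sox9 and S100b was 1714 to 1890 in WT and 1927 to 3756 in GFAP-IL6 at 50 ng, the highest being replicate 4, and 6 of the 8 had a higher mean in GFAP-IL6. Among them Gfap, the intermediate filament gene of astrocytes whose promoter drives the transgene, rose with a log2 fold change of 2.20 ± 0.27 (edgeR adjusted p = 0.000113). C4b divided by the astrocyte sum was 0.00281 to 0.00584 in WT and 0.0129 to 0.0314 in GFAP-IL6 at 50 ng, and 0.00268 to 0.00369 against 0.0104 to 0.0241 at 10 ng. Endothelial markers (Cldn5, Flt1, Pecam1, Slco1a4 and Ly6c1) moved as well, from 101 to 128 CPM in WT to 163 to 196 CPM in GFAP-IL6 at 50 ng, with all 5 higher in the mean. The part of any cell type in the C4b difference was not tested.

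**Figure D4:**
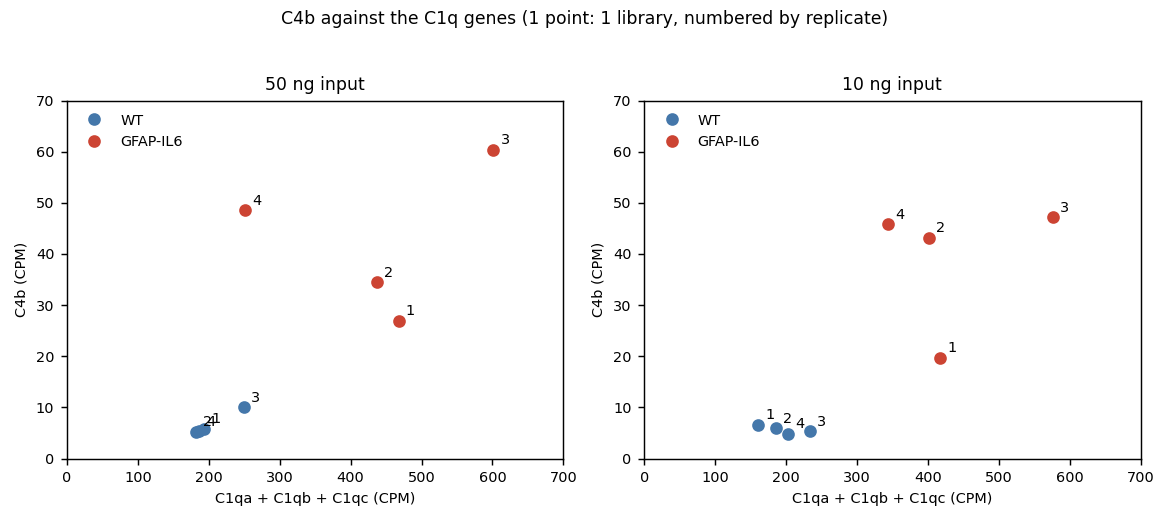
CPM of C4b against the summed CPM of C1qa, C1qb and C1qc at 50 ng (left) and 10 ng (right), both axes linear from 0, each point a library numbered by replicate, WT in blue and GFAP-IL6 in red. WT libraries stay at or below 10.02 CPM of C4b and GFAP-IL6 libraries at or above 19.7 CPM, and among the latter C4b does not follow C1q, replicate 4 at 50 ng having 48.6 CPM of C4b with the lowest C1q of its group (250.5 CPM).

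C3, the component on which the pathways converge, was scarcely counted. At 50 ng it had 0, 0, 1 and 1 counts in WT and 2, 2, 12 and 0 counts in GFAP-IL6, so that only GFAP-IL6 replicate 3, at 2.77 CPM, stood above 3 counts. At 10 and at 0.5 ng all 8 libraries had 0 counts, which at 10 ng allows a level of up to 0.305 to 2.82 CPM depending on the library, and at 1 ng there were 2 counts in WT replicate 2 and 1 in GFAP-IL6 replicate 1. The pooled ratio at 50 ng was 8.90 with an exact 95% interval of 2.09 to 79.8 that covers the counting error of reads only, and 12 of the 16 GFAP-IL6 counts came from replicate 3. Between libraries the levels did not separate (two-sided exact permutation p = 0.143). C3 did not pass the filter on low counts at any input, and a genotype difference in C3 was not detectable at this depth.

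C3ar1, the C3a receptor gene, overlapped between genotypes at 50 and 10 ng and did not pass the filter on low counts at 1 and 0.5 ng. It stood at 5.53, 3.01, 4.17 and 3.58 CPM in WT and at 6.95, 2.80, 7.84 and 4.48 CPM in GFAP-IL6 at 50 ng, with overlapping groups. The log2 fold change was 0.45 ± 0.38 (edgeR adjusted p = 0.838) at 50 ng and 1.598 ± 0.716 at 10 ng (adjusted p = 0.623), where GFAP-IL6 libraries ran from 0 to 12.1 CPM and WT libraries from 0.505 to 7.26 CPM. The value at 10 ng rested on single libraries, being 2.60 without WT replicate 2 and 1.02 without GFAP-IL6 replicate 3. At 0.5 ng C3ar1 had 0 counts in all WT libraries and 5 counts in all over the GFAP-IL6 libraries.

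Neither inhibitor passed at an input where it was tested, and Cd59a was not tested at 0.5 ng. Serping1 stood at 8.86, 3.01, 6.40 and 5.44 CPM in WT and at 9.85, 7.46, 20.1 and 3.23 CPM in GFAP-IL6 at 50 ng, with GFAP-IL6 replicate 3 far above the rest and replicate 4 near the lowest. Its log2 fold change was 0.69 ± 0.43 at 50 ng (edgeR adjusted p = 0.835), -0.0033 ± 0.42 at 10 ng (adjusted p = 0.998), 0.81 ± 1.19 at 1 ng and -1.23 ± 1.55 at 0.5 ng. The value at 50 ng was 0.088 without GFAP-IL6 replicate 3 and 1.08 without GFAP-IL6 replicate 4. Cd59a stood at 5.53, 5.27, 9.46 and 8.09 CPM in WT and at 7.24, 9.33, 12.9 and 8.24 CPM in GFAP-IL6 at 50 ng, and the groups overlapped. The log2 fold change of Cd59a was 0.33 ± 0.31 at 50 ng (edgeR adjusted p = 0.844), -0.22 ± 0.34 at 10 ng (adjusted p = 0.899) and -0.34 ± 1.15 at 1 ng.

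The difference between C1q and the receptor and inhibitor genes was tested directly, in 12 ratios of C1qb or C1qc to C3ar1, Serping1 or Cd59a that were added after the values had been seen. The log2 ratio of C1qb to Serping1 was 3.61 ± 0.28 (SD, n = 4) in WT and 4.90 ± 0.51 in GFAP-IL6 at 10 ng, and that to Cd59a rose from 3.09 ± 0.66 to 4.26 ± 0.35 without overlap. All 4 ratios to the inhibitors at 10 ng were higher in 4 of 4 GFAP-IL6 libraries, by 1.17 to 1.31, with an exact permutation p of 0.0286 that did not pass adjustment over the 12 (adjusted p = 0.0857). The ratios to C3ar1 at 10 ng differed by 0.32 and 0.34, with wide overlap (exact permutation p = 0.80 and 0.714, adjusted p = 0.80 and 0.779). At 50 ng the 6 ratios were higher by 0.49 to 0.76 and the groups overlapped (exact permutation p from 0.0571 to 0.286, adjusted p from 0.129 to 0.343).

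The rest of the pathway was read from a list of 51 genes by role, of which 48 had a row. Of these, 18 could be tested at 50 ng and 1 passed, Itgam, higher in GFAP-IL6, beside 0.28% of all genes. The median log2 fold change of the 18 was 0.23. At 10 ng 0 of 19 passed in edgeR, 4 of them with an unadjusted p under 0.05, and DESeq2 called 1, where 901 of all 12043 genes had an unadjusted p under 0.05 and DESeq2 called 67. At 1 and 0.5 ng, 10 and 9 genes were tested and 0 passed by edgeR or DESeq2, with 1 and 0 at an unadjusted p under 0.05 in edgeR.

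Among the receptors, Itgam, the alpha chain of complement receptor CR3 and a marker of myeloid cells, stood at 8.86, 2.26, 3.90 and 4.91 CPM in WT and at 23.8, 18.7, 25.1 and 34.6 CPM in GFAP-IL6 at 50 ng. The groups were far apart, and replicate 4, low in C1q, was the highest. The log2 fold change was 2.26 ± 0.31 at 50 ng (edgeR adjusted p = 0.000614) and 1.38 ± 0.34 at 10 ng (adjusted p = 0.0606). Its partner chain Itgb2 had 1.41 ± 0.49 at 50 ng and -0.34 ± 0.57 at 10 ng (adjusted p = 0.626 and 0.911). C5ar1, the C5a receptor, had 1.43 ± 0.47 at 50 ng and 1.97 ± 0.64 at 10 ng (adjusted p = 0.550 and 0.341). Its level at 50 ng was 4.70 ± 1.41 CPM (SD, n = 4) in GFAP-IL6 and 1.91 ± 0.84 CPM in WT. Itgax, the alpha chain of CR4, had 1 count over the WT and 9 counts over the GFAP-IL6 libraries at 50 ng. Cr1l, a membrane regulator related to complement receptors, held 19.9 ± 2.4 CPM (SD, n = 4) in WT and 19.8 ± 3.8 CPM in GFAP-IL6 with 50 ng.

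Initiating proteases were low. At 50 ng C1ra stood at 1.46 ± 1.19 CPM in WT and 2.14 ± 0.77 CPM in GFAP-IL6 (SD, n = 4), C1s1 at 1.06 ± 0.39 and 0.819 ± 0.570 CPM, and C2, whose product is cleaved beside that of C4, at 2.17 ± 1.06 and 1.30 ± 1.10 CPM. In the alternative pathway Cfb and Cfd had 0 counts in all 32 libraries, while Cfp, encoding properdin, stood at 1.31 ± 0.41 CPM in WT and 4.53 ± 2.45 CPM in GFAP-IL6 at 50 ng. At 10 ng Cfp stood at 2.53 ± 1.20 CPM in WT and 4.00 ± 1.71 CPM in GFAP-IL6. Its log2 fold change at 10 ng was 0.64 ± 0.59 (edgeR adjusted p = 0.827), which does not test the difference at 50 ng. Hc, the mouse C5 gene, had 3 counts over all libraries.

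Among the regulators, Cfi, encoding the protease factor I, had 0 counts in all libraries. Clu, encoding clusterin, was by far the most counted regulator and held 1175 ± 169 CPM in WT and 1174 ± 407 CPM in GFAP-IL6 (SD, n = 4) at 50 ng, with a log2 fold change of -0.039 ± 0.20. Cd46, Cd55, Cd59b and Csmd1, membrane regulators, had log2 fold changes between -0.11 and 0.48 at 50 ng and between -0.96 and 1.10 at 10 ng, and none passed.

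How many libraries held a member depended on the input. More than 3 counts of C1qb and of C1qc were present in 8 of 8 libraries at every input. C4b was above 3 counts in 8 of 8 libraries at 50 and 10 ng, 4 at 1 ng and 5 at 0.5 ng, and Cd59a in 8, 8, 4 and 3. Averaged over genotypes, in a single edgeR fit of all libraries, the level of C1qb at 0.5 ng differed from that at 50 ng by 0.14 ± 0.18 on the log2 scale and that of C1qc by 0.25 ± 0.16 (adjusted p = 0.728 and 0.392). At 10 and 1 ng 0 of 7 members passed in edgeR or DESeq2, with 0 and 1 at an unadjusted p under 0.05 in edgeR, beside 0% and 0.822% of 12164 genes. At 0.5 ng 1 of 7 passed, C3ar1, lower by -4.53 ± 1.34 (adjusted p = 0.0323), beside 6.72% of genes, a call lost when replicate 1, 3 or 4 was left out. The input difference of C4b at 0.5 ng was -1.49 ± 0.55 (adjusted p = 0.0991). No member had a genotype difference that changed with input past the threshold (0 of 7 at 10, 1 and 0.5 ng in edgeR and in DESeq2, with 0, 1 and 1 at an unadjusted p under 0.05 in edgeR), beside 0%, 0% and 0.197% of genes. The single edgeR fit had a common spread of 0.526, against 0.214 at 50 ng and 0.238 at 10 ng in the separate fits. At 10 ng only 65 of the 12164 genes had an unadjusted p under 0.05 in edgeR for input, and 1 for the interaction. With so few, the 0 calls at 10 ng cannot show that members were alike at 10 and 50 ng.

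**Figure D5:**
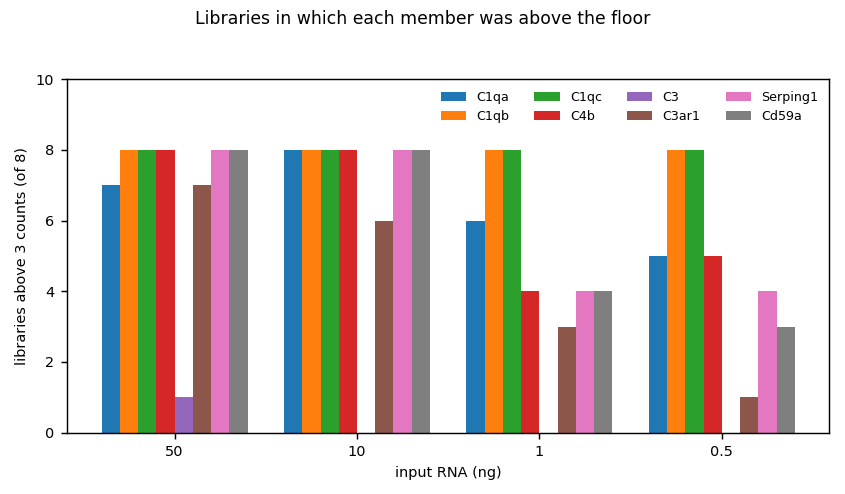
Number of libraries, of 8 at each input, in which each member had more than 3 counts, as bars from 0 against the input RNA in ng. C1qb and C1qc stay at 8 throughout, C4b falls from 8 at 50 ng to 4 at 1 ng and 5 at 0.5 ng, and C3 reaches 1 at 50 ng and 0 elsewhere.

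Genes whose levels ran most like those of a member were sought among 10471 genes over the 16 libraries at 50 and 10 ng, by Pearson r of log2(CPM + 1). The r spans both genotypes and libraries that may share RNA, so it is a description. For C4b the closest were Scgb3a1, a secretoglobin (r = 0.95), Gfap (0.93), Vwf, the von Willebrand factor gene (0.91), and the chemokine genes Ccl12 (0.90) and Ccl8 (0.89). Vwf (mean 1.61 CPM in WT, 8.90 in GFAP-IL6) and Ccl8 (0.965 and 11.4 CPM) reached the required mean of 5 CPM only through the GFAP-IL6 libraries, so their r over both genotypes restates the genotype difference. For C1qa they were Vwf (0.90), Cd52, a surface antigen of leukocytes (0.89), Tspan12 (0.86), Scgb3a1 (0.85) and Iqsec3 (0.85). For Serping1 they were Grpel2 (0.91), Vtn, the vitronectin gene (0.87), Snrnp40 (0.85), Nagpa (0.84) and Bhlhb9 (0.83). Vwf and Scgb3a1 stood on both the C4b and the C1qa list, and no gene of the Serping1 list stood on either. Genes with a large genotype difference rank high for any member whose level differs by genotype, so this overlap adds nothing to that difference.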

How the data were processed

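The authors trimmed poly(A) stretches, aligned the reads to mm10 (STAR 2.4) and used featureCounts on GENCODE genes, keeping unique alignments. The deposited values are whole, non-normalized counts per gene, and strand use in counting is not stated in the sources used here. The data carry no molecular identifiers, so reads copied in amplification are not told apart. The exact intervals therefore treat each read as independent and do not cover the counting error of molecules or the spread between libraries. Here, genotypes were compared within each input by edgeR 4.0.16 (R 4.3.3; TMM, filterByExpr, quasi-likelihood test, Benjamini-Hochberg over all genes tested, threshold 0.05), without covariates, on scripts tested on simulated data. Input and interaction contrasts used a single fit of all 32 libraries, which did not pair libraries of the same number. SE values are on the log2 scale. Permutation tests and ratios used Python 3.11.15 with scipy 1.17.1. Members, lists and tests were chosen with earlier results of these data known. Named were the members, a set of pathway genes with those that passed, marker checks, and the 5 genes most like C1qa, C4b and Serping1 with a mean of at least 5 CPM. Some listed genes are not reported here by name. Positions are from GENCODE on GRCm38, the authors' build. Alternatives were DESeq2 1.42.0 and its size factors, no filter, a replicate block, thinning, a single fit, other pseudocounts and leaving out replicates. No pair of replicate libraries agreed within sampling noise (lowest chi-square per degree of freedom 2.15 in 48 pairs).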

Additional observations from a re-analysis of the deposited data

Results flagged for a closer look

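Within groups of 4 libraries, 12 of 79 groups of values had a highest or lowest library whose gap to the next, as a share of the group's range, was above Dixon's 95% critical value, which chance passes in about 1 in 20 groups of continuous, independent values. These were neither, since 3 of the 12 come from groups with 3 libraries at 0, where the gap is the whole range, and several repeat the same libraries, so the number of groups is not read against that rate. For C4b these were WT replicate 3 at 50 ng (10.02 CPM, others at most 5.81), GFAP-IL6 replicate 1 at 10 ng (19.7 CPM, others at least 43.2) and WT replicate 3 at 0.5 ng (3.09 CPM, 4 counts, others at 0). C4b relative to the astrocyte marker sum stood out in WT replicate 3 at 50 ng (0.00584) and at 0.5 ng (0.00186) and in WT replicate 2 at 1 ng (0.00326, from 2 counts). WT replicate 3 is the library number high in choroid plexus markers at every input, and the part of that in its C4b was not tested. At 10 ng its C4b level, 5.30 CPM, lay within the range of the other WT libraries.

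C1qb stood out in GFAP-IL6 replicate 3 at 0.5 ng (324 CPM, others at most 210 CPM). The sum of the C1q genes was lowest in WT replicate 2 at 1 ng (147 CPM), from 54 counts, and relative to microglial markers it was highest in WT replicate 3 at 50 ng (0.460). C3ar1 stood out in WT replicate 2 at 10 ng (7.26 CPM) and in WT replicate 4 at 1 ng (16.8 CPM), and Cd59a in GFAP-IL6 replicate 3 at 0.5 ng (5.22 CPM, others at 0).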

How the results depend on the processing

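C4b at 50 and 10 ng kept its direction in every alternative run and passed in all but the single fit of all 32 libraries. Members passing at 50 ng, 3 as reported, numbered 0 in that single fit and 1 to 3 with a replicate left out, and at 10 ng 1 in the single fit. The pathway list went from 1 to 0 at 50 ng in the single fit, and at 10 ng from 0 to 1 (Itgam) with DESeq2, no filter or the replicate block and to 0 to 1 with a replicate left out. At 1 ng the members passing rose from 0 to 1 with DESeq2 size factors, the block or thinning, to 2 without the filter, to 3 with DESeq2 or the single fit, and lay at 0 to 1 with a replicate left out (1 without WT replicate 2 or GFAP-IL6 replicate 4). At 0.5 ng members passing were 1 with DESeq2 and 3 in the single fit, and pathway genes 3 in the single fit, which called 655 of 12164 genes there against 1 of 8571 in the separate fit and 16 with DESeq2. For input at 0.5 ng the count of 1 became 0 after thinning, 2 with DESeq2 and 0 to 1 with a replicate left out. After thinning only 3 members were tested, against 7 in the main fit, so that 0 is not a like comparison. Leaving out a replicate moved Serping1 at 10 ng between -0.55 and 0.21 and Cd59a at 1 ng between -0.94 and 0.32, turning their sign. The causes were not tested. With 5 CPM as pseudocount the ratio of C4b to C1qb and to C1qc at 10 ng no longer passed (exact permutation test, adjusted p = 0.0615 and 0.0857) and that to C3ar1 did (0.0333).

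Same-numbered WT and GFAP-IL6 libraries deviated together weakly (r from 0.0361 to 0.189 at 50 ng and 0.0390 to 0.131 at 10 ng over 13392 genes). The labels do not say that a number marks a shared batch, but replicate 2 had the lowest and replicate 4 the highest total in both genotypes at all 4 inputs. Libraries of the same number and genotype deviated together across inputs (10 ng with 50 ng, r from 0.0516 to 0.510 in GFAP-IL6 and 0.0772 to 0.237 in WT), and the single fit treats them as independent. With the replicate block the members passing were 3 with 50 ng, 3 with 10 ng, 1 with 1 ng and 0 with 0.5 ng of input. C3 was at or under the floor in all libraries but GFAP-IL6 replicate 3 at 50 ng, as were C3ar1, Serping1, Cd59a and WT C4b in part of those at 1 and 0.5 ng. Pooled WT counts of C4b were 104 in 16075039 at 50 ng and 3 in 5585571 at 1 ng, and what lowered them was not tested.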
